A study of Mus musculus with 12 samples.

Results

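The genes of glycolysis and pyruvate handling, together with Gapdh, were followed through mpkCCD cells, a mouse line that originates from principal cells of the cortical collecting duct. The 38 members were a list of symbols, all of them found in the deposited FPKM values (fragments mapped to a gene, scaled to its length and to all mapped reads). With 1 row per symbol, 37 of them were among the 52015 genes used, and Aldoa, with 2 different rows, is described on its own. They run from the glucose transporters through the enzymes of glycolysis to lactate export, mitochondrial pyruvate entry and the pyruvate dehydrogenase kinases.

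RNA-seq was performed on 12 cultures in 4 groups. Scr cells had received a scramble guide RNA without a target and carried wild-type Nfat5, with 2 libraries at 300 mosmol/kg (Scr_300) and 2 at 600 mosmol/kg (Scr_600). Nfat5-KO cells had lost Nfat5, the tonicity-responsive transcription factor, through CRISPR/Cas9 editing, with 4 libraries at each osmolality (Nfat5-KO_300 and Nfat5-KO_600), 2 from clone N1 and 2 from clone N3. All cultures were kept for 5 days in their medium, and the hypertonic one contained 100 mM added NaCl and 100 mM added urea. The knockout therefore stands for 2 clones. The deposited values give 1 number per gene for each group and none per library, so that no spread between replicates or clones was available, no test was run, and every difference below compares 2 numbers.

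Glycolysis splits glucose into pyruvate in the cytosol and yields ATP without oxygen. The pyruvate is either reduced to lactate and exported, or enters the mitochondria, where the pyruvate dehydrogenase complex makes acetyl-CoA from it unless its kinases switch the complex off. The inner medulla, into which the collecting duct descends, is poor in oxygen and rich in salt and urea, and its cells are known to rely strongly on glycolysis. Several of the genes, among them Slc2a1, Pgk1, Ldha and Pdk1, are established targets of hypoxia-inducible factor.

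The promoters of 36 members were matched by symbol in RefSeq (GRCm38.p6), each as 250 bases before and 50 bases after the start of transcription. The listed start nearest to that of the principal transcript in GENCODE M21 was used. It lay 17941 bases from it for Hk1, 694 for Gapdh and 587 for Slc16a3. Shown are those of the 3 members with a level in Nfat5-KO_600 at or below 0.5 of that in Scr_600, as these had the largest genotype differences of the list at 600 mosmol/kg. Capitals mark ACGTG and GCGTG, the core letters of hypoxia response elements, which read CACGT and CACGC where they lie on the opposite strand.
Slc2a1, chr4:119108495-119108794, plus strand: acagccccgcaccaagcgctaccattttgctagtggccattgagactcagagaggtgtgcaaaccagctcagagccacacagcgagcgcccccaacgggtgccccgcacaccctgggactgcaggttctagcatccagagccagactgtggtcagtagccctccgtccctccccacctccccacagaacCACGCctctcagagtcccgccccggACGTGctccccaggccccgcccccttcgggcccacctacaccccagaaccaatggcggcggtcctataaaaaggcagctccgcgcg
Ldha, chr7:46846832-46847131, plus strand: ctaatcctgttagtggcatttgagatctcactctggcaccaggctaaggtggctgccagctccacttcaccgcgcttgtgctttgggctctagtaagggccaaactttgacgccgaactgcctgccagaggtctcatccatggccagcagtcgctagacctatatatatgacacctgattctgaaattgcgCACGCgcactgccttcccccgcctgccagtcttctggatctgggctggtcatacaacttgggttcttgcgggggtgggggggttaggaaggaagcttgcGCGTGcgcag
Pdk1, chr2:71872974-71873273, plus strand: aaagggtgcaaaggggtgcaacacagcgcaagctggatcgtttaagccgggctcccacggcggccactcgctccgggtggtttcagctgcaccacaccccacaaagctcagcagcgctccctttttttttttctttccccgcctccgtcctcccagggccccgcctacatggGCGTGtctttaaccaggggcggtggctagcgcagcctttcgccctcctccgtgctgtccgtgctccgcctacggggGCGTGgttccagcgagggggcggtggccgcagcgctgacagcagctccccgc

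The Slc2a1 window held ACGTG 36 bases before the start and GCGTG on the opposite strand. The Ldha window held GCGTG on each strand, and that of Pdk1 held it 78 and 2 bases before the start. Over the members, 19 of 36 windows (52.8%) held ACGTG on either strand, against 20.5% of all 20595 promoters and 26.4% of the 9038 whose gene reached 0.5 FPKM in any group. GCGTG was held by 63.9% of the members' windows, 36.6% of all promoters and 53.6% of those of the genes that reached 0.5 FPKM. TGGAAA, the core letters of the tonicity element that NFAT5 binds, stood in 7 of the 36 windows (19.4%), against 20.1% of all promoters and 15.8% of those of the genes that reached 0.5 FPKM. None of the 3 printed windows holds TGGAAA. The members' windows include that of Hk1, far from the annotated start, and those of Ldhb, Slc16a3 and Pdk4, which stayed under 0.5 FPKM. These counts are matches of letters in short windows and say nothing about binding.

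Nfat5 itself was listed with 5.61 FPKM in Scr_300, 7.93 in Scr_600, 3.47 in Nfat5-KO_300 and 6.88 in Nfat5-KO_600. As deposited, the transcript was thus lower in the knockout but present, and its level does not show whether protein was made. The upper quartile was 7.57 FPKM in Scr_600 and 5.75 in Nfat5-KO_600, a wider gap than that of Nfat5. The direction for Nfat5 at 600 mosmol/kg therefore depends on the scaling. Of 14 markers of principal cells and collecting duct epithelium 8 had at least 0.5 FPKM, with a summed level of 787 to 1198 FPKM per group, lowest in Nfat5-KO_600, and Cdh1, Krt8 and Krt18 were the highest of them. The defining genes Aqp2, Aqp4, Avpr2, Scnn1b and Scnn1g stayed under 0.5 FPKM in every group. Other markers moved with genotype or osmolality, as the log2 ratios in the hypertonic knockout were 2.77 for Gata3, 3.06 for Hsd11b2, 2.33 for Scnn1a and -2.25 for Kcnj1. Of the 5 intercalated cell markers, Foxi1 and Atp6v0d2 were at 0 in every group, Slc26a4 and Slc4a1 reached at most 0.115 and 0.417 FPKM, and Atp6v1b1 had 0.973 FPKM in Scr_300, 0.542 in Scr_600, 0.438 in Nfat5-KO_300 and 0.149 in Nfat5-KO_600. The 3 proximal tubule markers summed to 0.0165 to 1.08 FPKM, with Lrp2 at 1.07 FPKM in Nfat5-KO_600. Whether these cell type markers have a part in the results was not tested. Markers of fibroblasts and endothelium stayed under 0.5 FPKM, and the 2 leukocyte markers summed to 1.44 to 2.62 FPKM. The FPKM of all genes summed to 254885 in Scr_300, 232921 in Scr_600, 251998 in Nfat5-KO_300 and 212963 in Nfat5-KO_600. Read numbers per library are unknown, so no counting error could be calculated.

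Differences are given as log2 ratios of FPKM + 0.1 for genes that reached 0.5 FPKM in either group compared, and the added 0.1 makes the ratios of low genes smaller. Of the members, 32 were compared. Another 5 stayed under 0.5 FPKM in every group, namely the glucose transporters Slc2a3 and Slc2a4, the lactate dehydrogenase subunit Ldhb, the lactate exporter Slc16a3 and the kinase Pdk4, the highest value among them being the 0.174 FPKM of Slc2a4 in Nfat5-KO_600. Aldoa stayed outside the counts.

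For 19 of the 32 members the lowest of the 4 levels was that of hypertonic knockout cells, as it was for 32.8% of all genes. Of the FPKM summed without exact repeats of a row, the members, with both rows of Aldoa, took 1.10% in Scr_300, 0.925% in Scr_600, 0.867% in Nfat5-KO_300 and 0.598% in Nfat5-KO_600. For 15 of the 32 members, Scr_300 was the highest of the 4 groups and Nfat5-KO_600 the lowest, and these 15 were lower in all 4 comparisons as deposited, against 13 with the FPKM sums and 9 with the upper quartiles of the groups made equal. Among the 13414 genes that reached 0.5 FPKM anywhere, 16.1% had that order of the highest and lowest group, and 15.3% were lower in all 4 comparisons as deposited. The share of all genes was not calculated for the rescaled counts of 13 and 9, so these do not set the members apart. The 15 were Pgm1, Pgm2, Gpi1, Pfkl, Pfkp, Pfkfb1, Aldoc, Tpi1, Pgk1, Pgam1, Eno1, Ldha, Pdha1, Pdk1 and Pdk3. As RNA came from whole cultures, fewer cells that express a gene and less RNA per cell cannot be told apart.

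**Figure D1:**
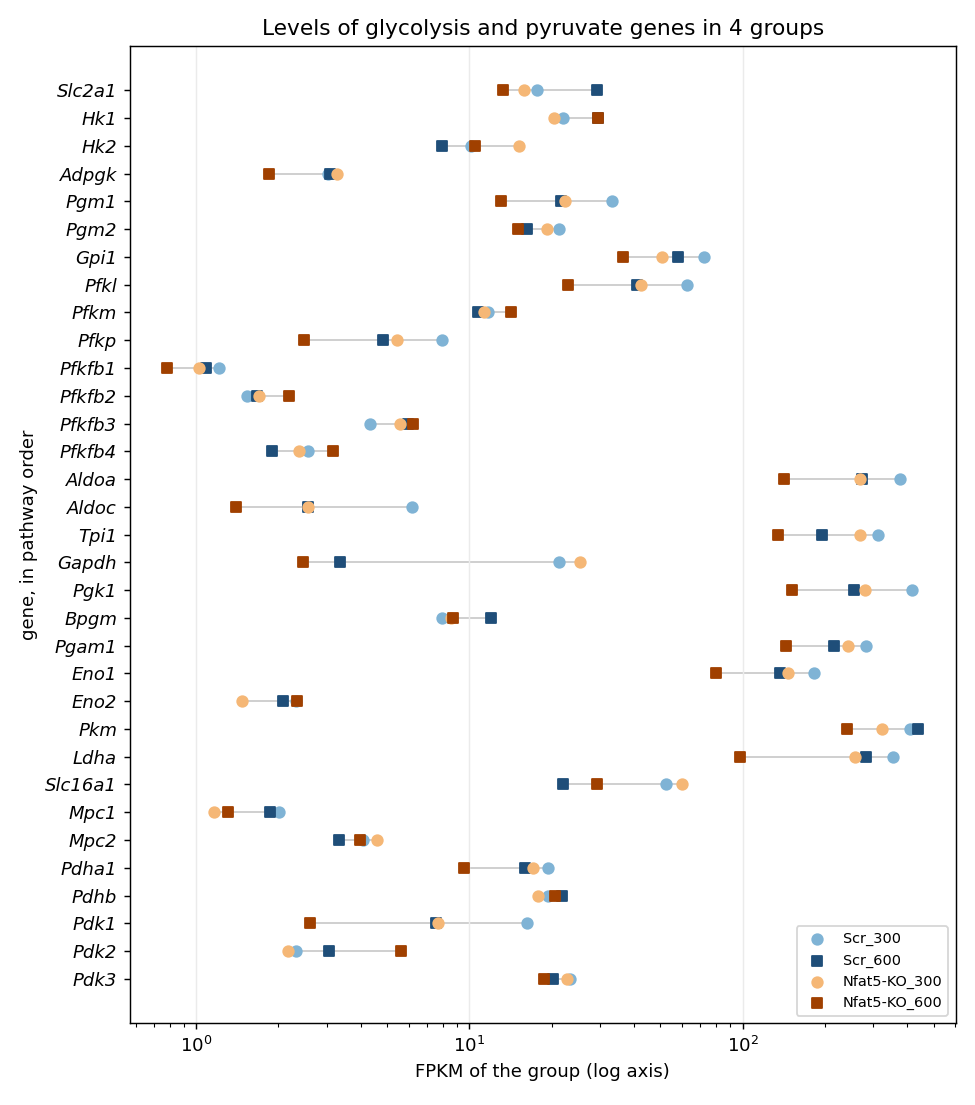
The level of each member that reached 0.5 FPKM is plotted in pathway order on a logarithmic FPKM axis, with 1 point per group and no error bars since there is 1 value per group. Nfat5-KO_600 is the leftmost point of the 15 members named above, while Gapdh lies at 21.2 and 25.5 FPKM at 300 mosmol/kg and at 3.36 and 2.46 FPKM at 600 mosmol/kg.

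Loss of NFAT5 under isotonic conditions went with lower levels of 24 of the 32 members (50.2% of the 12704 genes compared were lower), and the median log2 ratio was -0.17 against -0.00 for all genes. At least 2-fold lower were 2 members, Aldoc and Pdk1, where 2.44% of all genes were, and no member was at least 2-fold higher (1.73% of all genes). The direction of this count depended on the scaling, since with equal upper quartiles 12 members were lower and the median of the members was 0.11, while that of all genes moved to 0.28. The share of all genes that were lower was not calculated with equal upper quartiles. The upper quartile was taken over the genes above 0 FPKM, and more genes were above 0 in the knockout groups, 24973 and 26589, than in Scr_300 with 22121 and Scr_600 with 22621.

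Under hypertonic conditions loss of NFAT5 went with lower levels of 22 members (52.2% of 13063 genes), with a median of -0.47 against -0.02. Slc2a1, Ldha and Pdk1 were at least 2-fold lower (3.68% of all genes) and none was at least 2-fold higher (3.76%). With equal upper quartiles 19 members were lower and their median was -0.09, beside 0.38 for all genes, and Slc2a1 was then no longer 2-fold lower (-0.74). Here too the share of all genes that were lower was not calculated after this rescaling.

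Hypertonicity in Scr cells went with lower levels of 23 members (54.6% of 12929 genes) and a median of -0.31 against -0.04. Aldoc, Gapdh, Slc16a1 and Pdk1 were at least 2-fold lower (2.86% of all genes), and no member was at least 2-fold higher (4.81%). In Nfat5-KO cells 22 members were lower at 600 mosmol/kg (52.9% of 12982 genes), with a median of -0.45 against -0.04. Here 6 members were at least 2-fold lower (4.11% of all genes), namely Pfkp, Tpi1, Gapdh, Ldha, Slc16a1 and Pdk1, and Pdk2 was at least 2-fold higher (6.25%). The comparisons share groups, so their counts are not independent of each other.

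**Figure D2:**
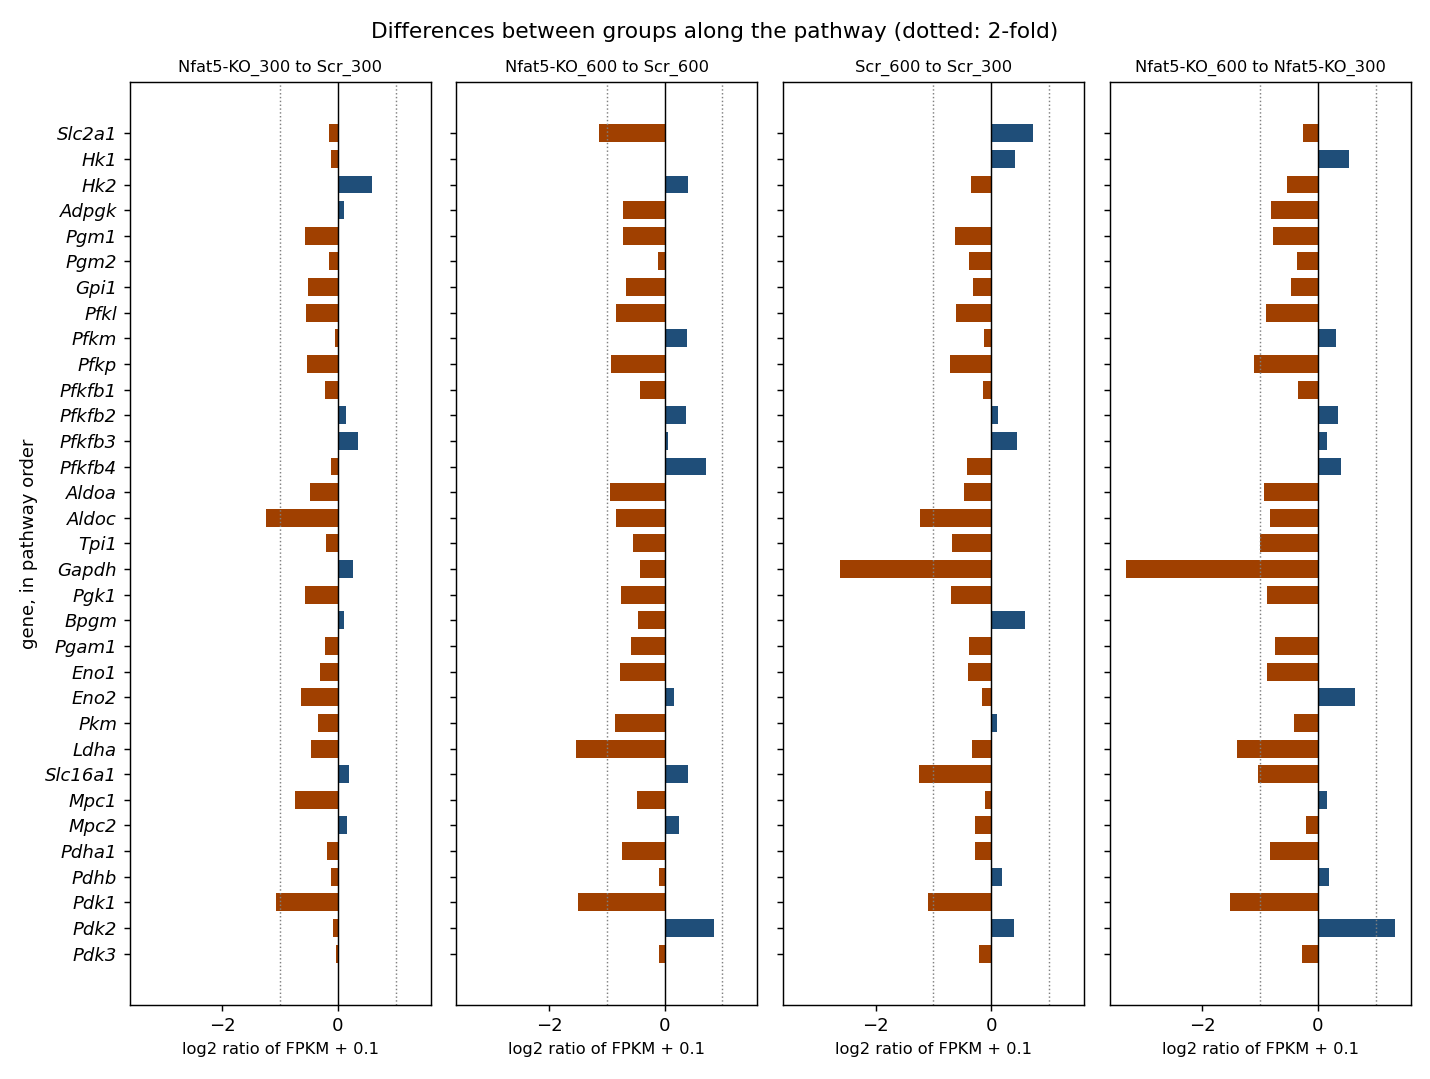
Bars give the log2 ratio of FPKM + 0.1 of each member in each of the 4 comparisons, in pathway order, with dotted lines at 2-fold in either direction and no error bars since each group has 1 value. The Gapdh bars reach -2.62 and -3.32 in the comparisons of osmolality but 0.26 and -0.43 in those of genotype, and those of Pdk1 lie beyond -1 in all 4.

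Slc2a1, the basal glucose transporter and the only one of the 3 listed for uptake above 0.5 FPKM, had 17.6 FPKM in Scr_300, 29.2 in Scr_600, 15.9 in Nfat5-KO_300 and 13.2 in Nfat5-KO_600. It was thus higher at 600 mosmol/kg in Scr cells, with a log2 ratio of 0.72, but not in Nfat5-KO cells, where the ratio was -0.26. The difference of these effects was -0.98, and the log2 ratio of knockout to Scr was -1.13 at 600 mosmol/kg. At 300 mosmol/kg it was -0.15, and 0.13 with equal upper quartiles. Without replicates this difference between the genotypes was not tested.

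The first phosphorylation of glucose is done by hexokinases. Hk1, the housekeeping form, had 22.1 FPKM in Scr_300, 29.5 in Scr_600, 20.3 in Nfat5-KO_300 and 29.6 in Nfat5-KO_600. It was higher at 600 mosmol/kg in both genotypes, by log2 ratios of 0.42 and 0.54. As deposited, its level was almost the same in Scr_600 and Nfat5-KO_600, but with equal upper quartiles the knockout ratio there was 0.40. Hk2, the inducible form, had 10.2 FPKM in Scr_300, 7.92 in Scr_600, 15.2 in Nfat5-KO_300 and 10.5 in Nfat5-KO_600. It went the other way, lower at 600 mosmol/kg (-0.36 and -0.54) and higher in the knockout (0.58 and 0.40). The share of Hk1 in the FPKM of both was therefore larger at 600 mosmol/kg, 78.8% in Scr_600 and 73.9% in Nfat5-KO_600, against 68.5% in Scr_300 and 57.1% in Nfat5-KO_300. Adpgk, the ADP-dependent glucokinase, had 3.03, 3.08 and 3.29 FPKM in Scr_300, Scr_600 and Nfat5-KO_300 but 1.84 in Nfat5-KO_600.

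Gpi1, which turns glucose 6-phosphate into fructose 6-phosphate, had 72.5 FPKM in Scr_300, 57.9 in Scr_600, 50.8 in Nfat5-KO_300 and 36.6 in Nfat5-KO_600. The phosphoglucomutase Pgm1, which links glucose 6-phosphate to glycogen, had 33.2, 21.6, 22.4 and 13.1 FPKM in the same order. Both were lower with knockout at either osmolality and with hypertonicity in either genotype under every scaling, and their log2 ratios as deposited lay between -0.77 and -0.32. Pgm2 differed less, from 21.3 FPKM in Scr_300 to 15.0 in Nfat5-KO_600.

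Phosphofructokinase, the committed step of glycolysis, is built from 3 kinds of subunit. Pfkl, the liver type, had 62.6 FPKM in Scr_300, 41.2 in Scr_600, 42.6 in Nfat5-KO_300 and 22.9 in Nfat5-KO_600. Pfkp, the platelet type, had 7.96, 4.83, 5.44 and 2.48 FPKM in the same groups, and was past 2-fold lower with hypertonicity in the knockout (-1.10, and -0.93 with equal upper quartiles). Pfkm, the muscle type, did not share this order and was highest in Nfat5-KO_600, with 11.7, 10.8, 11.4 and 14.2 FPKM. The share of Pfkm in the summed FPKM of the subunits was 14.2% in Scr_300, 19.0% in Scr_600, 19.1% in Nfat5-KO_300 and 35.8% in Nfat5-KO_600, and Pfkl remained the main subunit in every group.

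The Pfkfb enzymes make and remove the sugar bisphosphate that activates phosphofructokinase. Their summed level lay between 9.66 FPKM in Scr_300 and 12.3 FPKM in Nfat5-KO_600. Pfkfb3 was the highest, with 4.34 FPKM in Scr_300, 5.97 in Scr_600, 5.55 in Nfat5-KO_300 and 6.21 in Nfat5-KO_600. Pfkfb4, with 2.57, 1.89, 2.37 and 3.16 FPKM, was lower at 600 mosmol/kg in Scr cells (-0.43) and higher in Nfat5-KO cells (0.40). Pfkfb2 ranged from 1.53 to 2.19 FPKM and Pfkfb1 from 0.783 to 1.21 FPKM.

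**Figure D3:**
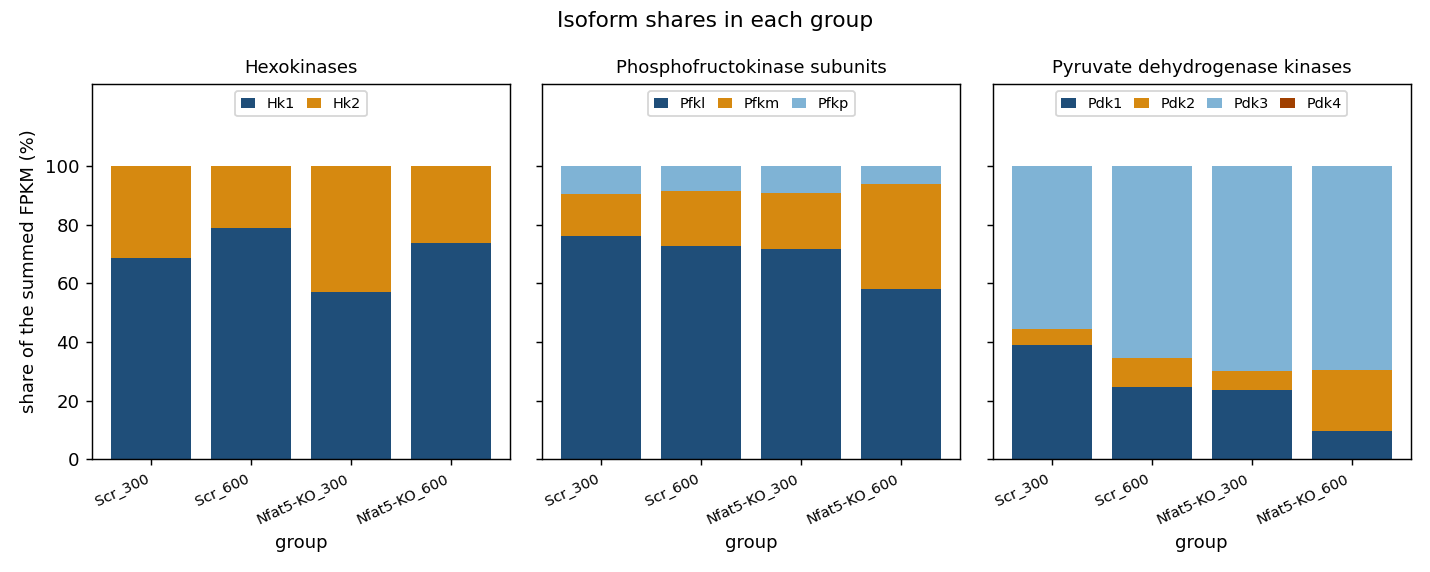
Stacked bars show the share of each isoform in the summed FPKM of the hexokinases, the phosphofructokinase subunits and the pyruvate dehydrogenase kinases in each group, without error bars because each group has 1 value. The bars of Nfat5-KO_600 hold the largest shares of Pfkm (35.8%) and Pdk2 (20.8%) and the smallest share of Pdk1 (9.69%).

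Aldolase splits the sugar bisphosphate into trioses. The first row of Aldoa, the main form, had 378 FPKM in Scr_300, 272 in Scr_600, 269.9 in Nfat5-KO_300 and 141 in Nfat5-KO_600, with log2 ratios of -0.49 and -0.95 for the knockout and -0.47 and -0.93 for hypertonicity. The second row held 1.71 to 2.17 FPKM, and the annotation has 2 genes of this symbol on chromosome 7. Aldoc, the brain-type aldolase, had 6.16 FPKM in Scr_300, 2.57 in Scr_600, 2.56 in Nfat5-KO_300 and 1.40 in Nfat5-KO_600. Its level was about as low after loss of NFAT5 alone (-1.24) as after hypertonicity alone (-1.23). Tpi1, which interconverts the trioses, had 313, 196, 269.6 and 135 FPKM in the same order, and its hypertonicity ratio in Nfat5-KO cells lay just past 2-fold as deposited and short of it with equal upper quartiles (-0.82).

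Gapdh, glyceraldehyde-3-phosphate dehydrogenase, had 21.2 FPKM in Scr_300, 3.36 in Scr_600, 25.5 in Nfat5-KO_300 and 2.46 in Nfat5-KO_600. It was lower at 600 mosmol/kg in both genotypes, with 0.159 of the isotonic level in Scr cells (log2 ratio -2.62) and 0.0968 of it in Nfat5-KO cells (-3.32). Among the 5422 compared genes that reached 10 FPKM in any of the 4 groups, only 1 gene was lower in the Scr comparison and none in that of the knockout. The levels at 300 mosmol/kg were also far under those of the enzymes on either side, Tpi1 and Pgk1, with 313 and 416 FPKM in Scr_300.

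Gapdh lies at chr6:125161715-125166467 (ENSMUSG00000057666, minus strand, GRCm38), and the mouse genome holds many processed pseudogenes of it. In the GENCODE M21 transcripts, 84 genes matched a Gapdh transcript with at least 95% identity over at least 200 bases and 70% of their length, and 83 of these copies were above 0 FPKM in the table. The highest was Gm13394, a processed pseudogene at chr2:28933610-28934609, in which 999 of 1000 aligned bases were identical to Gapdh. Gm13394 was chosen after its values were seen. It had 367 FPKM in Scr_300, 284 in Scr_600, 419 in Nfat5-KO_300 and 235 in Nfat5-KO_600, far more than Gapdh itself and, in Scr_300, between the levels of Tpi1 and Pgk1. Its log2 ratios were -0.37 (Scr) and -0.83 (Nfat5-KO) for hypertonicity, and 0.19 and -0.27 for the knockout at 300 and 600 mosmol/kg. The next copies were Gm5559 with 13.8, 10.9, 12.4 and 6.64 FPKM and Gm12070 with 8.44, 6.97, 8.86 and 4.78 FPKM. All 3 copies were lowest in Nfat5-KO_600, and none of them was 2-fold lower at 600 mosmol/kg.

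To set Gapdh beside its copies, FPKM values were multiplied by the exon length in GENCODE M21 and added as RPM, reads scaled to all mapped reads. Gapdh took 17.5% of the sum of itself and its copies in Scr_300 and 18.5% in Nfat5-KO_300, but 4.17% in Scr_600 and 3.77% in Nfat5-KO_600. The sum was 499 RPM in Scr_300, 333 in Scr_600, 568 in Nfat5-KO_300 and 270.3 in Nfat5-KO_600. Its log2 ratios for hypertonicity were -0.58 for Scr and -1.07 for Nfat5-KO cells, beside -2.62 and -3.32 for the row of Gapdh. For the knockout they were 0.19 at 300 mosmol/kg and -0.30 at 600 mosmol/kg. The lengths that the authors used are not stated, and neither is the treatment of reads that fit several places. Whether the assignment of reads between Gapdh and its copies differed between the osmolalities was not tested, since the deposited table has no reads, and the level of Gapdh is uncertain for that reason. The exons of Gapdh also overlap those of Iffo1 on the other strand by 68 bases, but Iffo1 was under 0.08 FPKM in every group.

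**Figure D4:**
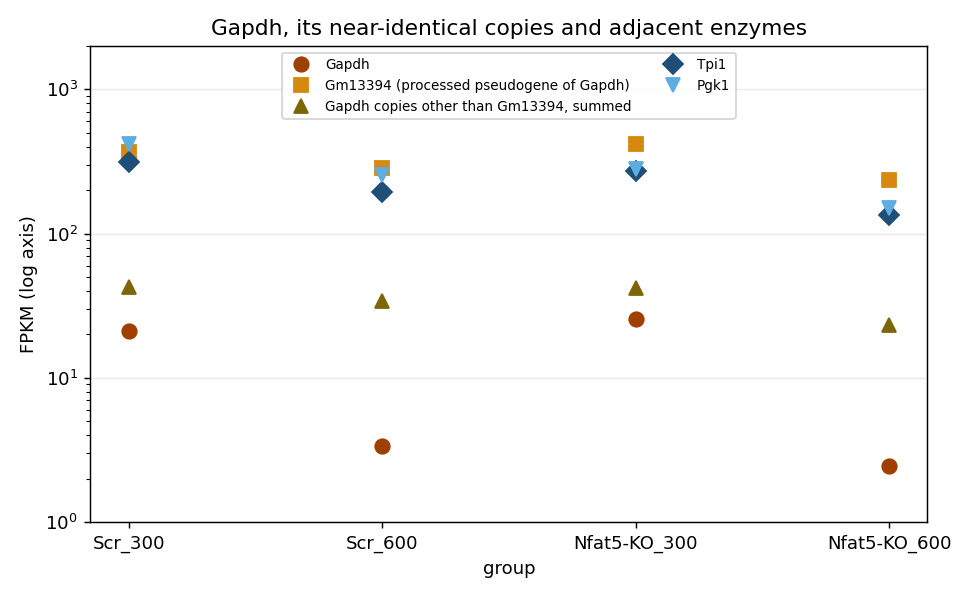
FPKM on a logarithmic axis is plotted by group for Gapdh, its pseudogene Gm13394, the sum of its other copies, and the adjacent enzymes Tpi1 and Pgk1, with 1 value per group and no error bars. Gapdh lies at 3.36 and 2.46 FPKM at 600 mosmol/kg, whereas Gm13394 lies between 235 and 419 FPKM in all 4 groups.

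A GAPDH primer pair is among the RT-qPCR primers of the study, and its sequences are shown because the same question of copies touches them.
GAPDH forward primer: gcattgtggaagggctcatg
GAPDH reverse primer: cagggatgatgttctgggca
The forward primer matched chr6:125162843-125162862 in exon 4 of transcript Gapdh-201 and the reverse primer chr6:125162609-125162628 in exon 5, which gives an amplicon of 120 bases from the spliced RNA. Both sites were present in the transcripts of 57 annotated genes, of which 56 were other than Gapdh and 54 were processed pseudogenes. No RT-qPCR value was analysed here.

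Of the enzymes after Gapdh, Pgk1, the first ATP-yielding one, had 416 FPKM in Scr_300, 256 in Scr_600, 281 in Nfat5-KO_300 and 152 in Nfat5-KO_600. Pgam1, the phosphoglycerate mutase, had 283, 215, 243 and 144 FPKM, and Eno1, the main enolase, had 182, 137, 146 and 79.8 FPKM in the same order. The 3 enzymes were lower in all 4 comparisons, with the largest ratios for hypertonicity in Nfat5-KO cells (-0.89, -0.75 and -0.87), except that for Pgam1 the isotonic knockout ratio of -0.22 turned to 0.06 with equal upper quartiles. Copies of Eno1 carried much of the signal of that family: the pseudogene Gm4735, with 1297 of 1302 bases identical, had 204, 151, 173 and 86.1 FPKM, and Eno1b had 173, 131, 147 and 77.4 FPKM. Unlike for Gapdh, these copies followed the member closely, and the share of Eno1 in RPM stayed between 60.7% and 62.1%. For Tpi1, Pgk1, Pgam1 and Pkm that share was at least 98.6% in every group.

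Other genes of lower glycolysis did not share this order. Bpgm, which makes the bisphosphoglycerate that lowers the oxygen affinity of haemoglobin, had 7.95 FPKM in Scr_300, 12.0 in Scr_600, 8.57 in Nfat5-KO_300 and 8.70 in Nfat5-KO_600. As deposited, Bpgm was higher at 600 mosmol/kg in Scr cells (0.59) and almost level in Nfat5-KO cells (0.02). With equal upper quartiles these ratios were 0.65 and 0.20. Eno2, the neuronal enolase, had 2.32, 2.08, 1.47 and 2.35 FPKM, lower in the knockout at 300 mosmol/kg (-0.63) and close to Scr cells at 600 mosmol/kg (0.16). Pkm, the pyruvate kinase gene, had 411, 438, 323 and 241 FPKM. It was slightly higher at 600 mosmol/kg in Scr cells (0.09) and lower in Nfat5-KO cells (-0.42), and the genotypes differed by -0.86 at 600 mosmol/kg. Pkm was the highest member in Scr_600 and in both knockout groups.

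Ldha, which reduces pyruvate to lactate, had 356 FPKM in Scr_300, 283 in Scr_600, 258 in Nfat5-KO_300 and 98.0 in Nfat5-KO_600. With hypertonicity the log2 ratio was -0.33 for Scr and -1.40 for Nfat5-KO cells, and the difference of these effects, -1.07, was the only one past 2-fold among the 32 members (of 13414 genes, 3.16% were at least 2-fold below and 3.88% at least 2-fold above). In Nfat5-KO_600 the level was 0.347 of that in Scr_600. Leaving this value aside, the other 3 groups lay between 258 and 356 FPKM. With the FPKM sums or the upper quartiles made equal, the difference of Ldha fell short of 2-fold. With equal upper quartiles that of Pdk2, 0.94 as deposited, was 1.06 and the only one past 2-fold. Ldhb, the other common subunit, was at most 0.161 FPKM, under its own pseudogene Gm5514 with 1.35 to 2.03 FPKM.

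Slc16a1, which moves lactate and pyruvate across the plasma membrane, had 52.5 FPKM in Scr_300, 22.0 in Scr_600, 59.9 in Nfat5-KO_300 and 29.2 in Nfat5-KO_600. It followed osmolality, with ratios of -1.25 for Scr and -1.03 for Nfat5-KO cells. It was higher in the knockout, by 0.19 and 0.41 as deposited and by 0.47 and 0.80 with equal upper quartiles. Its hypertonicity ratio in Nfat5-KO cells was -0.85 with equal upper quartiles. Ldha and Slc16a1 thus differed in the group that was lowest, Nfat5-KO_600 for Ldha and Scr_600 for Slc16a1.

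**Figure D5:**
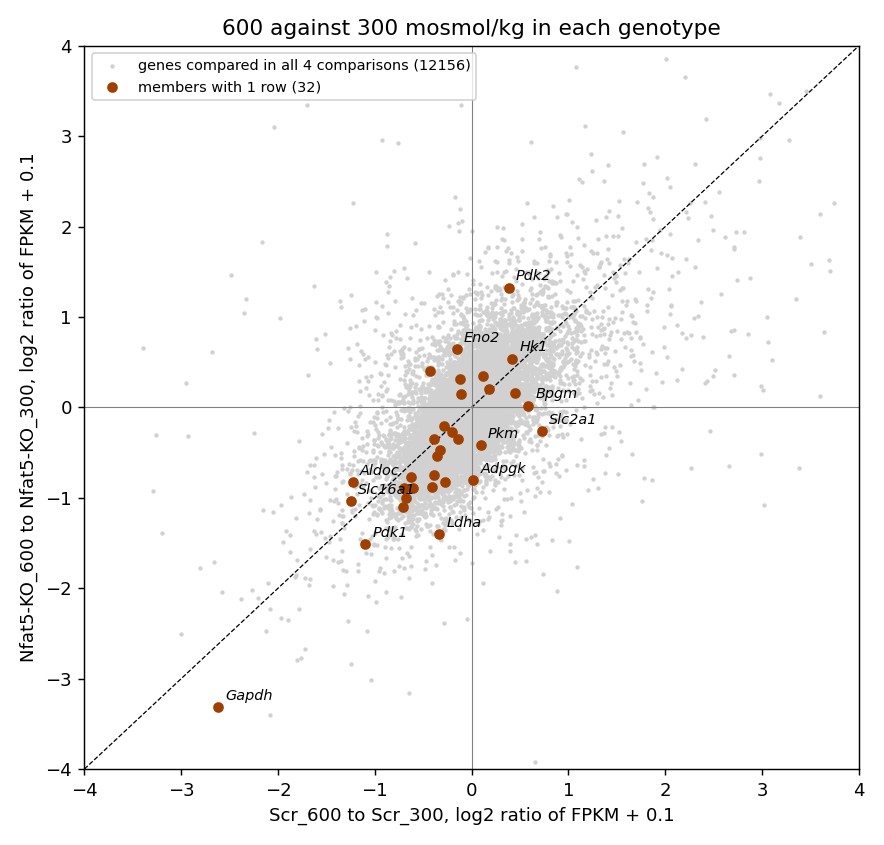
Each point sets the log2 ratio of Scr_600 to Scr_300 (x axis) against that of Nfat5-KO_600 to Nfat5-KO_300 (y axis) for 1 gene, with 12156 genes in grey, 32 members in colour, a dashed line of equal effects and 4 genes beyond the axes. Gapdh stands apart at the lower left (-2.62 and -3.32), Ldha (-0.33 and -1.40) and Slc2a1 (0.72 and -0.26) lie below the dashed line, and Pdk2 (0.38 and 1.33) lies above it.

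The effect of hypertonicity was more negative in Nfat5-KO cells for 20 of the 32 members (52.0% of 13414 genes), and the median of the difference was -0.19 against -0.01 for all genes. With equal FPKM sums the members' median difference was -0.07 and that of all genes 0.10. As deposited, the direction was opposite in the 2 genotypes for 7 members, namely Slc2a1, Adpgk, Pfkm, Pfkfb4, Eno2, Pkm and Mpc1, as it was for 26.0% of the 12497 genes compared in both. With equal FPKM sums these were 6, without Pfkm and Mpc1 and with Mpc2, and the share of all genes was not calculated there. Slc2a1, Adpgk and Pkm were higher with hypertonicity in Scr cells and lower in Nfat5-KO cells, although the Scr ratio of Adpgk was only 0.02, and the other 4 went from lower to higher.

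Pyruvate enters the mitochondria through a carrier of Mpc1 and Mpc2. Mpc2 lay between 3.33 and 4.58 FPKM. Mpc1 had 2.01 FPKM in Scr_300, 1.86 in Scr_600, 1.16 in Nfat5-KO_300 and 1.30 in Nfat5-KO_600, with knockout ratios of -0.74 and -0.48 as deposited and of -0.48 and -0.11 with equal upper quartiles. Its pseudogene Mpc1-ps, with 329 of 330 bases identical, was listed at 18.6 to 20.1 FPKM, so the level of Mpc1 is uncertain as well. Pdha1, the catalytic subunit of pyruvate dehydrogenase that the kinases act on, had 19.5, 16.0, 17.0 and 9.58 FPKM, whereas its partner Pdhb lay between 17.8 and 21.9 FPKM in all groups. Pdha1 was lower than Pdhb by the widest margin in Nfat5-KO_600. The ratio of Ldha to Pdha1 was 18.3 in Scr_300, 17.6 in Scr_600, 15.2 in Nfat5-KO_300 and 10.2 in Nfat5-KO_600.

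The pyruvate dehydrogenase kinases switch the complex off by phosphorylation. Pdk1, the form known to respond to low oxygen, had 16.2 FPKM in Scr_300, 7.54 in Scr_600, 7.64 in Nfat5-KO_300 and 2.61 in Nfat5-KO_600. As deposited it was the only member at least 2-fold lower in all 4 comparisons, with ratios of -1.08 and -1.49 for the knockout and -1.10 and -1.51 for hypertonicity. With equal upper quartiles no member was 2-fold lower in the isotonic knockout, Pdk1 and Aldoc included. Pdk2 had 2.32, 3.06, 2.17 and 5.60 FPKM, and was higher at 600 mosmol/kg in both genotypes (0.38 and 1.33) and in the knockout at 600 mosmol/kg (0.85). The ratio of Pdk2 to Pdk1 was 0.14 in Scr_300, 0.41 in Scr_600, 0.28 in Nfat5-KO_300 and 2.14 in Nfat5-KO_600, so that Pdk2 exceeded Pdk1 in hypertonic knockout cells only. Pdk3 was the highest kinase in every group, between 18.8 and 23.3 FPKM, and its share of the summed kinases was 55.7% in Scr_300 and 65.5% to 69.8% in the other groups. The summed kinases were lower in Nfat5-KO_600, with 27.0 FPKM, than in Scr_300, with 41.8 FPKM.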

How the data were processed

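The authors mapped paired-end reads to GRCm38 (mm10) with HISAT2, counted them per gene with HTSeq and scaled the counts by gene length and mapped reads. Tool versions, the annotation release, the strand setting of the counting and the way the libraries of a group were combined are not given in the sources used here. The authors deposited FPKM as 1 value per gene and group, so the tests that DESeq2 made on libraries could not be repeated.

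Of 54839 deposited rows, 2436 held no value, 311 were exact repeats of another row, and 37 symbols whose rows disagreed were set aside, which left 52015 genes. Log2 ratios of FPKM + 0.1 were calculated for genes that reached 0.5 FPKM in either group compared (for the difference of effects, 1 of the 4), and genes at least 2-fold apart were counted, without any p-value. The members and all gene lists were chosen with earlier results of these data known. Values in every group are given for members with at least 1 FPKM in a group, with ranges for those that varied little, and other genes are named only from fixed lists where they were 2-fold different or the highest of their list. Outside that rule, the copies of members, Iffo1, the single markers, Slc2a8, the flat reference genes and the pathway genes given as not differing were chosen after their values were seen.

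Copies were found by aligning GENCODE M21 transcripts with minimap2 2.31. The steps were tested on simulated data. Python 3.11.15, numpy 2.4.6, pandas 2.3.3 and matplotlib 3.10.9 were used. Alternatives were a pseudocount of 1 or 0.01, the filter left out or set to a mean of 1 FPKM, median-of-ratios factors, equal FPKM sums, equal upper quartiles (also for the branches, after seeing the data), summed rows of a symbol, a fold of 1.5, and the sum of Gapdh and its copies, which was added after seeing the data.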

Additional observations from a re-analysis of the deposited data

How the results depend on the processing

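With 1 value per group there is no spread between libraries, and depth is unknown. Leaving out each replicate was not run, since the table has no values per library. No paired analysis was possible because the columns are group values that carry no replicate numbers.

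Of 210 alternative values for the members as a list, 190 stayed within 1.5-fold of the value reported and 20 moved. This limit is wide for the small medians of the members. With equal upper quartiles the isotonic knockout median changed sign to 0.11 and the hypertonic one moved to -0.09, and both count among the 190. In the isotonic knockout comparison the 2 members at least 2-fold lower became 1 with a pseudocount of 1 and 0 with equal upper quartiles, and 12 members were then lower. In the hypertonic knockout comparison equal upper quartiles gave 2 members at least 2-fold higher. For hypertonicity in Nfat5-KO cells, 3 members were at least 2-fold lower with equal FPKM sums and 3 with equal upper quartiles. For the difference of the effects, equal FPKM sums gave 0 members lower and 1 higher, equal upper quartiles also 0 and 1, and no filter gave 1 higher. A fold of 1.5 counts more members by construction: 4 lower in the isotonic knockout, 13 lower and 2 higher in the hypertonic knockout, 9 lower and 2 higher for hypertonicity in Scr cells, 14 lower and 2 higher in Nfat5-KO cells, and 4 lower and 3 higher for the difference. The share of all genes was not calculated for these alternative counts, so they do not set the members apart from other genes. The cause of the other changes was not tested.

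Of 764 alternative values for single genes and the median of all genes, 762 stayed within 1.5-fold. The other 2 were those of Gapdh with its copies added, -0.58 for Scr and -1.07 for Nfat5-KO cells. No difference of 2-fold or more changed sign in any of these alternatives. These counts are weak checks, since the filter and the summed rows leave the ratio of a single named gene unchanged. A rescaling also moves all genes of a comparison by nearly the same amount. Small ratios could change sign within the 1.5-fold limit. In the isotonic knockout comparison Tpi1 went from -0.21 to 0.07 and Slc2a1 from -0.15 to 0.13 with equal upper quartiles.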

Other observations

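In the polyol branch, which turns glucose into the osmolyte sorbitol, Akr1b3 (aldose reductase) had 23.8 FPKM in Scr_300, 175 in Scr_600, 14.5 in Nfat5-KO_300 and 39.2 in Nfat5-KO_600. Sord, which oxidises sorbitol to fructose, had 1.39, 0.485, 0.670 and 1.56 FPKM in the same order. At 600 mosmol/kg the genotypes thus differed in opposite directions, with log2 ratios of -2.16 for Akr1b3 and 1.51 for Sord. Khk, the fructokinase that follows, had 2.19, 2.17, 1.54 and 3.83 FPKM and was past 2-fold higher with hypertonicity in the knockout (1.26) but not in Scr cells (-0.02). These differences between the genotypes were not tested.

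On the scale of FPKM + 0.1 as deposited, other pathways that branch from glycolysis showed no difference of 2-fold. This held for all 8 genes of the pentose phosphate pathway, of which Taldo1 was the highest with 66.1 to 99.9 FPKM, for the 11 genes of glycogen metabolism with at least 0.5 FPKM, of which Pygb was the highest with 23.1 to 27.8 FPKM, and for 4 genes of gluconeogenesis, led by Pck2 with 5.80 to 11.2 FPKM. G6pc3, a glucose 6-phosphatase, came closest in the isotonic knockout, with 4.98 against 2.46 FPKM (0.99), and with equal upper quartiles G6pc3 (1.26) and Fbp2 (1.12) were each past 2-fold in 1 knockout comparison. Within glycogen metabolism, Gys1 and Gyg, glycogen synthase and glycogenin, were lower in all 4 comparisons as deposited. Pcx, pyruvate carboxylase, had 5.48 FPKM in Scr_300, 14.3 in Scr_600, 4.68 in Nfat5-KO_300 and 13.1 in Nfat5-KO_600, and was the only one of 8 further genes of pyruvate use at least 2-fold apart in a comparison (1.37 and 1.47 for hypertonicity). Bsg, the chaperone of Slc16a1 and the highest of these 8, had 478.6, 322, 439 and 314 FPKM. Of 21 isoforms found mainly in other tissues 6 reached 0.5 FPKM, the highest being Eno3, the muscle enolase, with 5.53 to 7.44 FPKM, and the glucose transporter Slc2a8 had 2.38 to 3.52 FPKM. Pgam2, the muscle-type mutase, was listed with 1.35, 1.73, 0.513 and 2.11 FPKM, and its ratios were -1.25 for the isotonic knockout and 1.85 for hypertonicity in Nfat5-KO cells. Of 8 copies of members listed by name 4 reached 0.5 FPKM and were lower in all 4 comparisons as deposited, with Ldha-ps2 (-1.22) and Pgk1-rs7 (-1.13) past 2-fold in the hypertonic knockout.

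Gapdh and Pgk1 are often used as reference genes in RT-qPCR. Over the 4 groups, the log2 range was 3.32 for Gapdh and 1.45 for Pgk1, the widest among 14 such genes with at least 0.5 FPKM, but with its copies added Gapdh ranged over 1.07. Tbp ranged over 0.18 and Sdha over 0.23.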
